A study of Mus musculus with 4 samples.

Results

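Classical cadherins and their catenins were examined in mouse embryonic fibroblasts (MEFs) with and without Ip6k1, which encodes an inositol hexakisphosphate kinase. The group held 10 genes, namely the cadherins Cdh1, Cdh2, Cdh3, Cdh5, Cdh11 and Cdh13 and the catenins Ctnnb1, Jup, Ctnnd1 and Ctnna1. Its members were the 20 probes, of 41174 probes that are not controls, whose gene name in the array files was one of these symbols. Total RNA from 2 Ip6k1+/+ lines and 2 Ip6k1-/- lines was labelled with Cy3 and put on Agilent whole-genome arrays, 1 array for each line. The lines came from E14 embryos of a single cross between heterozygous parents, each line from its own embryo, and all of them expressed SV40 large T antigen for immortalisation. No further treatment was given. Cells were thawed, passaged and detached with trypsin before RNA was taken. The 2 lines of a genotype are named replicate 1 and replicate 2 below. Each p-value sets the genotype difference against the spread between lines, with the variance of a probe moderated by limma over all probes tested.

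Classical cadherins are calcium-dependent adhesion receptors that bind cadherins on the neighbouring cell through repeats in their extracellular part. Their cytoplasmic tail binds beta-catenin (Ctnnb1) or plakoglobin (Jup) and, closer to the membrane, p120-catenin (Ctnnd1), and alpha-catenin (Ctnna1) links the complex to actin. Epithelia are known for E-cadherin (Cdh1), whereas fibroblasts typically carry N-cadherin (Cdh2) and cadherin-11 (Cdh11). Beta-catenin that is not bound to cadherins can enter the nucleus and act with Tcf and Lef factors on Wnt target genes.

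Each value came from a 60-base probe that reads a short stretch of a transcript. The sequences of 2 probes are shown. What the Cdh11 probe reads bears on the Cdh11 result below, and the Cdh13 probe is given beside it. The Cdh11 probe A_52_P683146 lies at chr8:105191906-105191965 on the minus strand of mm9, the build named in the file headers, and the Cdh13 probe A_51_P114826 at chr8:121837969-121838028 on the plus strand.
Cdh11 A_52_P683146: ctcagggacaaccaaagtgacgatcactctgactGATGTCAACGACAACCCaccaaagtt
Cdh13 A_51_P114826: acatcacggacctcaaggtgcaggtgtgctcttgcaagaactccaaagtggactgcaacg
Capitals mark a match to GANNNNAANGANAANCC, written after the calcium-binding motif between cadherin repeats. These letters were found in 11 of 41174 probes (0.0267%) on the sense strand and in 2 on the reverse strand. This Cdh11 probe was the only one of the 20 member probes with a match, and the only one of the 11 named for a gene of the cadherin superfamily. The match is a description of the letters read by the probe.

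The signal was expressed as log2 of the background-corrected intensity minus the 75th percentile of the array, so 0 marks that percentile and a difference of 1 is 2-fold. All 4 arrays lay on 1 slide. The 75th percentile of the raw signal ranged from 607 to 746, and 52.0% to 55.5% of probes were well above background, which is a flag set by the extraction software. The targeted gene followed the labels on all 3 of its probes. Ip6k1 probe A_51_P213766 read 0.36 and 0.39 in the Ip6k1+/+ lines and lost that flag in both Ip6k1-/- lines, which made it at least 34.1-fold higher in Ip6k1+/+ MEFs (limma adjusted p = 0.0348). Probe A_51_P103718 was also lower, at 2.46 and 2.61 in the Ip6k1+/+ lines against -1.98 and -1.22 in the Ip6k1-/- lines, but stayed well above background in all 4 (limma adjusted p = 0.357). For a limit of this kind, each array of the dimmer genotype was given its own signal or, where higher, the faintest signal flagged as well above background. The fibroblast identity of the lines was examined through 11 markers. Of these, 11, 11, 11 and 10 were well above background in Ip6k1+/+ replicates 1 and 2 and Ip6k1-/- replicates 1 and 2.

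None of the 8 genes that could be tested passed a test of a genotype difference, given the spread between lines. Tests were run where a probe was well above background in both lines of either genotype, which held for 14 of the 20 member probes and for 21573 probes in all. No member probe had a limma adjusted p of 0.05 or less after Benjamini-Hochberg adjustment over all probes tested, beside 3 probes (0.0139%) in all. Adjusted values of the members lay between 0.994 and 0.996. Without adjustment, 0 member probes had p under 0.05 in either direction, beside 2.08% of tested probes lower and 1.27% higher in Ip6k1-/- MEFs. The fold rule used here took from the study's methods the cutoff of a mean change of at least 2-fold. A condition added here asked each Ip6k1-/- line to lie at least 0.9 from the Ip6k1+/+ mean. By this rule 0 members were lower and 0 were higher, beside 1.91% and 1.05% of tested probes. On the mean alone, Cdh11 A_51_P506204 and A_52_P437795 were 2.61-fold and 2.14-fold lower in Ip6k1-/- MEFs, and only the added condition left them out. The 2 lines of each genotype did not overlap on 4 of 14 member probes, beside 31.2% of tested probes. The median log2 difference was -0.15 over the 14 member probes, 8 of them lower and 6 higher in Ip6k1-/- MEFs, and 0.05 over all tested probes.

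**Figure D1:**
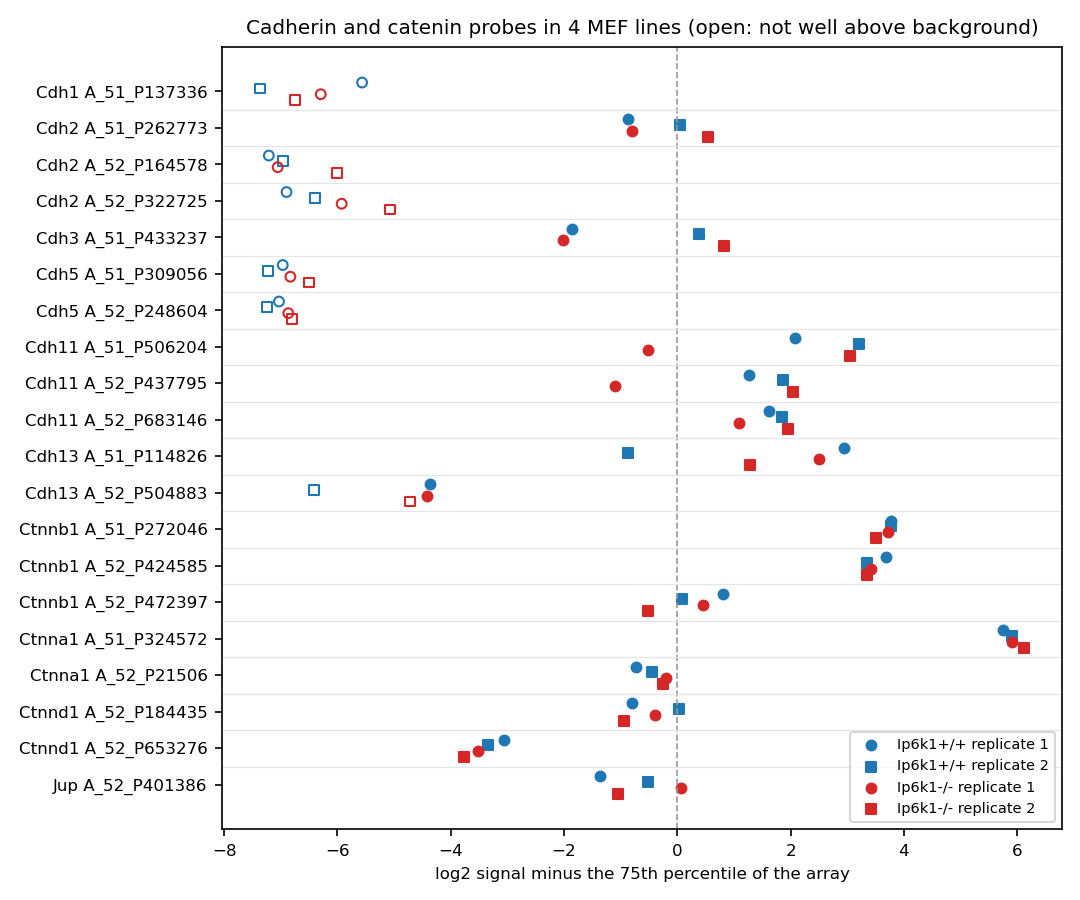
Log2 signal of each of the 20 member probes (x axis, relative to the 75th percentile of the array) in the 4 MEF lines, blue for Ip6k1+/+ and red for Ip6k1-/-, circles for replicate 1 and squares for replicate 2. Filled points were well above background and open points were not. The points of Cdh3, Cdh13 and 2 of the 3 Cdh11 probes are spread widest among the tested probes.

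**Figure D2:**
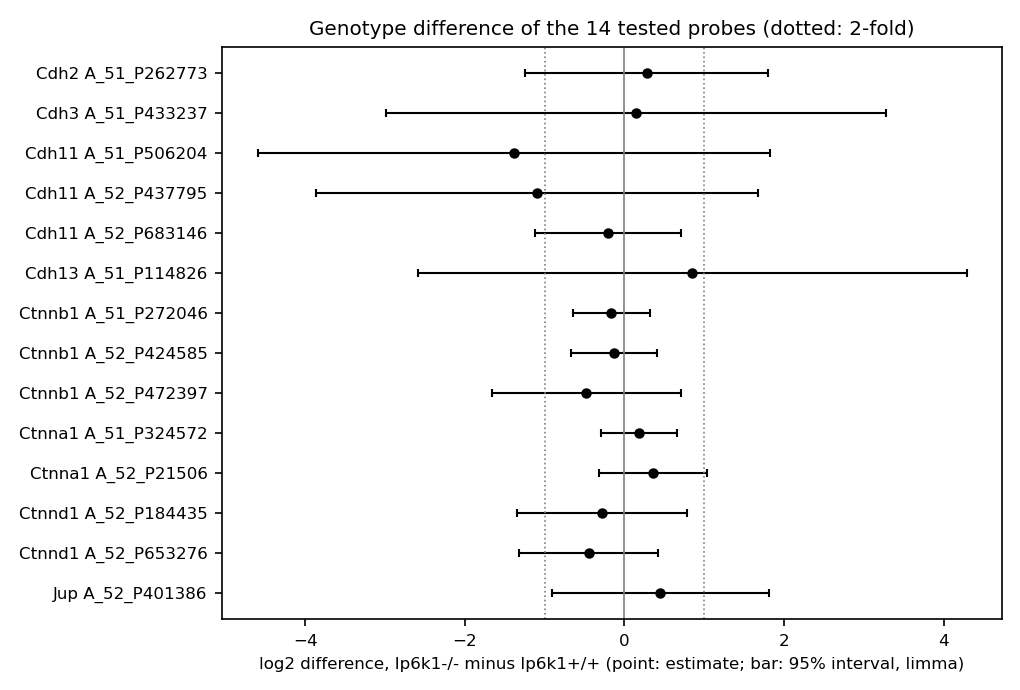
Log2 difference of the 14 tested probes, Ip6k1-/- minus Ip6k1+/+, as the limma estimate with its 95% interval. Every interval spans 0, and the intervals of 2 Ctnnb1 probes and 1 Ctnna1 probe lie within the dotted lines that mark 2-fold.

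Detection separated the cadherins. Cdh1, the cadherin of epithelial adherens junctions, was represented by probe A_51_P137336 at chr8:109193812-109193871 of mm9, printed in 10 spots on each array. Its mean log2 signal was -5.56 and -7.36 in the Ip6k1+/+ lines, against -6.29 and -6.75 in the Ip6k1-/- lines. No spot of it was well above background on any array, so no fold is given. Both probes of Cdh5, the cadherin of endothelial junctions, were likewise not well above background on any array, with values from -7.25 to -6.49. Other genes of the same cell types were read beside them. Of 12 epithelial markers, 5, 7, 4 and 4 were well above background in the order of lines above, and Cldn4, Esrp1, Ocln, Grhl2 and Krt14 passed that flag on no array. The summed epithelial signal, as a multiple of the 75th percentile, was 4.67 and 4.54 in the Ip6k1+/+ lines, against 4.56 and 6.83 in the Ip6k1-/- lines, of which Krt19 and Krt18, keratins of simple epithelia, contributed most. Of 10 endothelial markers, 3, 3, 4 and 3 were well above background, while Pecam1, Tek, Tie1, Esam, Emcn and Cldn5 passed the flag on no array. Kdr, Flt1 and Egfl7 passed it in every line. Flt1 read 0.30 and 2.75 in the Ip6k1+/+ lines, against 1.74 and 0.98 in the Ip6k1-/- lines. Egfl7 read 0.73 and 1.51, against 1.40 and 1.24. The summed endothelial signal was 3.085 and 9.73 in the Ip6k1+/+ lines, against 6.24 and 4.78 in the Ip6k1-/- lines.

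Cdh2, N-cadherin, is the type I cadherin typical of mesenchymal and neural cells and lies on chromosome 18. Its probe A_51_P262773 read -0.87 and 0.05 in the Ip6k1+/+ lines, against -0.81 and 0.55 in the Ip6k1-/- lines. Replicate 2 was the higher line in both genotypes, and the genotypes overlapped. The difference was 0.28 (SE 0.58, n = 2 lines per genotype). The other 2 probes named Cdh2, which the files assign to other cDNAs of the locus, were not well above background on any array.

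Cdh3, P-cadherin, another type I cadherin and known from basal epithelia, was measured by probe A_51_P433237 at chr8:109079493-109079553. It read -1.85 and 0.38 in the Ip6k1+/+ lines, against -2.02 and 0.82 in the Ip6k1-/- lines. Replicate 2 thus exceeded replicate 1 by 4.70-fold in Ip6k1+/+ and 7.17-fold in Ip6k1-/- MEFs, and the Ip6k1-/- values lay on either side of the Ip6k1+/+ values. Gaps at least that large between lines of 1 genotype were seen for 2.79% and 2.12% of all tested probes. The genotype difference was 0.14 (SE 1.20). RNA came from whole cultures, so fewer cells with the transcript and less transcript per cell cannot be told apart here.

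Cdh11, the type II cadherin of mesenchymal cells, had the largest difference between genotype means among the tested members, and that difference rested on a single line. Probe A_51_P506204, at chr8:105157896-105157955, read 2.09 and 3.21 in the Ip6k1+/+ lines, against -0.52 and 3.04 in the Ip6k1-/- lines. Probe A_52_P437795, at chr8:105157473-105157532, read 1.26 and 1.87 in the Ip6k1+/+ lines, against -1.10 and 2.04 in the Ip6k1-/- lines. On both probes Ip6k1-/- replicate 1 was the low line, and Ip6k1-/- replicate 2 lay close to or within the Ip6k1+/+ values. The 2 Ip6k1-/- lines stood 11.8-fold apart on the first and 8.82-fold apart on the second, gaps reached by 1.29% and 1.79% of all tested probes. The genotype differences were -1.39 (SE 1.23) and -1.10 (SE 1.06). Without Ip6k1-/- replicate 1 they turned to 0.40 and 0.47, so the sign depended on that line.

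The remaining Cdh11 probe, A_52_P683146, whose sequence is given above, did not show the gap of the other 2. It read 1.61 and 1.85 in the Ip6k1+/+ lines, against 1.09 and 1.95 in the Ip6k1-/- lines. Ip6k1-/- replicate 1 was again the lowest line, but by 0.86 below replicate 2. The genotype difference was -0.21 (SE 0.35). On the minus strand this probe lies upstream of the other 2, and the labelling was primed at the poly(A) tail. Among the 20 member probes it was also the only one for which the file lists cDNA accessions that it lists for probes of another gene name as well. These are 3 probes of 6820431F20Rik, a transcribed pseudogene on chromosome 8 in the RefSeq table of GRCm38.p6, some of whose cDNAs the file describes as similar to cadherins.

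These 3 probes were well above background in every line. Probe A_52_P425634 read 2.98, 3.60, 3.04 and 3.35, probe A_52_P212336 read 1.19, 1.46, 0.99 and 1.60, and probe A_52_P335089 read 0.93, 1.12, 0.66 and 1.21, in the order Ip6k1+/+ replicates 1 and 2 and Ip6k1-/- replicates 1 and 2. None of them fell in Ip6k1-/- replicate 1 by more than 0.61 below replicate 2, and their genotype differences lay between -0.10 and -0.03. Of the 6820431F20Rik probes that share no listed cDNA with Cdh11, A_51_P116665 and A_51_P146382 were well above background in every line, and their Ip6k1-/- lines differed by 0.041 and 0.126. The other 2 were dim and not well above background in Ip6k1-/- replicate 1, with A_52_P434009 at -5.58 there and at -4.10 in replicate 2, and A_52_P7105 at -4.73 and -4.36. The Cdh11 level on A_52_P683146 is therefore uncertain, since the files do not say how much of its signal comes from each locus. The part of probe position or of the shared cDNAs in the disagreement was not tested.

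**Figure D3:**
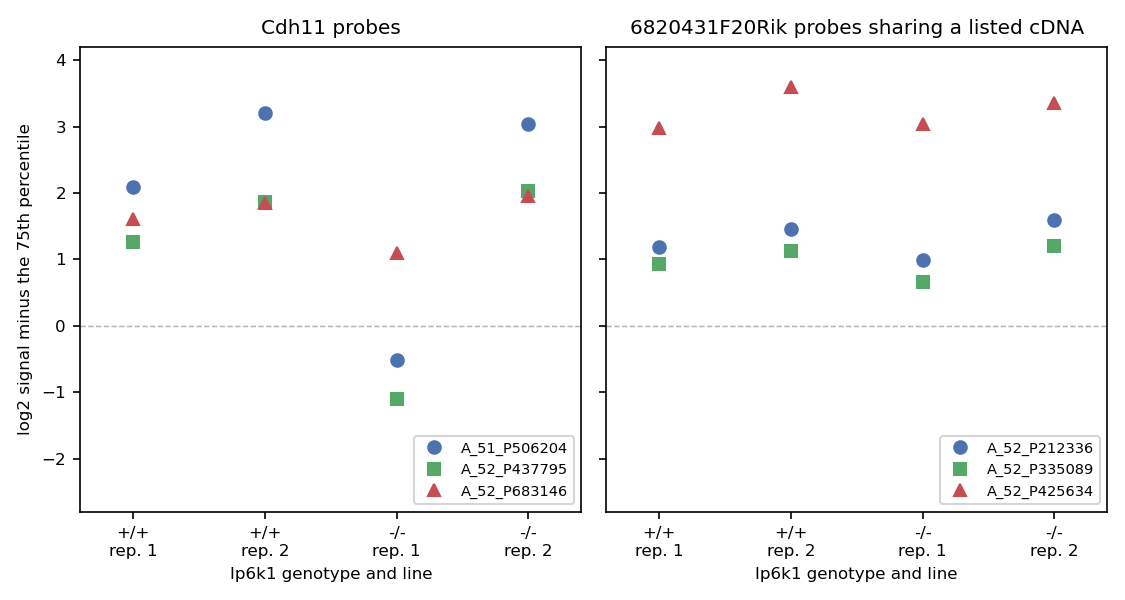
Log2 signal (y axis) of the 3 Cdh11 probes (left) and of the 3 6820431F20Rik probes that share a listed cDNA with one of them (right) in the 4 MEF lines (x axis). A pair of Cdh11 probes drops to -0.52 and -1.10 in Ip6k1-/- replicate 1, while the other Cdh11 probe and the 6820431F20Rik probes do not fall below 0.66 in any line.

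Other fibroblast genes did not all follow the line with low Cdh11. Of the 7 fibroblast markers saturated on no array, 2 were lowest in Ip6k1-/- replicate 1, namely Dcn and Pdgfrb. Col3a1, Pdgfra, Lum and Fn1 were lowest in Ip6k1-/- replicate 2, at 4.17, -2.33, -6.95 and 5.18 beside 5.46, -1.08, -3.14 and 5.39 in replicate 1, and that Lum value was not well above background. Thy1 was lowest in Ip6k1+/+ replicate 1, at 1.42 beside 3.98 in Ip6k1-/- replicate 1. Dcn, the small proteoglycan decorin, was at -2.09 in Ip6k1-/- replicate 1 and at 1.00, 1.90 and 0.18 in the other lines in the order above. Twist2, a transcription factor of mesenchyme that was named after its values were seen, was at 1.52 there and at 3.24, 2.97 and 3.63 elsewhere. Pdgfrb, a receptor of mesenchymal cells, was near 3.34 and 3.39 in both Ip6k1-/- lines and at 4.68 and 4.45 in the Ip6k1+/+ lines. The summed signal of all 11 markers was 576.5 and 549.2 in the Ip6k1+/+ lines, against 533.6 and 494.8 in the Ip6k1-/- lines, but most of it came from the 4 markers saturated on at least 3 arrays. The 7 others summed to 151.9 and 202.6 in the Ip6k1+/+ lines, against 112.8 and 112.1 in the Ip6k1-/- lines, so the Ip6k1-/- lines were nearly level on this sum. Single markers were not level. Between Ip6k1-/- replicates 1 and 2, Col3a1 went from 5.46 to 4.17 and Thy1 from 3.98 to 5.52. The part of these genes in the Cdh11 result was not tested.

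Cdh13, T-cadherin, is anchored to the membrane by a lipid and has no cytoplasmic tail for catenins. Its probe A_51_P114826 read 2.95 and -0.86 in the Ip6k1+/+ lines, against 2.51 and 1.28 in the Ip6k1-/- lines. Here the low line was Ip6k1+/+ replicate 2, which lay 14.0-fold below replicate 1, and both Ip6k1-/- lines fell between the 2 Ip6k1+/+ lines. A gap of that size between the Ip6k1+/+ lines was reached by 0.705% of all tested probes. The genotype difference was 0.85 (SE 1.32), and it became -1.05 without Ip6k1+/+ replicate 2. A further Cdh13 probe, A_52_P504883, was well above background only in Ip6k1+/+ replicate 1, at -4.36, and Ip6k1-/- replicate 1, at -4.41, and was not tested.

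The catenins were measured in every line on all 8 of their probes. Ctnnb1, beta-catenin, binds the cadherin tail and, when not bound to cadherins, can act in the nucleus. Probe A_51_P272046, at chr9:120868778-120868837, was printed in 10 spots and read 3.78 and 3.77 in the Ip6k1+/+ lines, against 3.72 and 3.50 in the Ip6k1-/- lines. Spots on 1 array had an SD of 0.036 to 0.046, which is technical spread only. The genotypes did not overlap. The difference was -0.16 (SE 0.19, 95% interval -0.65 to 0.32), and the interval held no 2-fold change in either direction.

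Ctnnb1 probe A_52_P424585, at chr9:120869274-120869333, read 3.68 and 3.35 in the Ip6k1+/+ lines, against 3.42 and 3.34 in the Ip6k1-/- lines. Its difference was -0.13 (SE 0.21, 95% interval -0.67 to 0.41), also within 2-fold. A further probe named Ctnnb1, A_52_P472397, which the file assigns to another cDNA of the locus, read 0.80 and 0.08 in the Ip6k1+/+ lines, against 0.45 and -0.52 in the Ip6k1-/- lines. Replicate 2 was lower in both genotypes on this probe, and the difference of -0.48 (SE 0.45) was smaller than the gap between lines.

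Jup, plakoglobin, is the close relative of beta-catenin that also serves desmosomes. Its probe A_52_P401386, at chr11:100232695-100232754, read -1.37 and -0.51 in the Ip6k1+/+ lines, against 0.07 and -1.04 in the Ip6k1-/- lines. The highest line was Ip6k1-/- replicate 1, the line with low Cdh11, and the genotypes overlapped. The difference was 0.45 (SE 0.52), and it changed to -0.10 without that line.

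Ctnnd1, p120-catenin, holds cadherins at the membrane. Probe A_52_P184435, at chr2:84441713-84441772, read -0.80 and 0.04 in the Ip6k1+/+ lines, against -0.39 and -0.93 in the Ip6k1-/- lines, with overlap between genotypes. Probe A_52_P653276 is placed by the file between 84443888 and 84445378 of chromosome 2, a span of 1491 bases. It read -3.05 and -3.34 in the Ip6k1+/+ lines, against -3.52 and -3.76 in the Ip6k1-/- lines. Both Ip6k1-/- lines were below both Ip6k1+/+ lines on it. The differences were -0.28 (SE 0.41) and -0.45 (SE 0.33), and with normexp background correction the second was -0.099.

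Ctnna1, alpha-catenin, ties the complex to actin and lies on chromosome 18. Its probe A_51_P324572 read 5.75 and 5.91 in the Ip6k1+/+ lines, against 5.91 and 6.12 in the Ip6k1-/- lines. The probe was not saturated. Probe A_52_P21506, assigned to another cDNA of the locus, read -0.73 and -0.45 in the Ip6k1+/+ lines, against -0.20 and -0.25 in the Ip6k1-/- lines. On both probes the Ip6k1-/- lines were above the Ip6k1+/+ lines. On the first probe the nearest lines were almost level, at 5.912 in Ip6k1-/- replicate 1 and 5.906 in Ip6k1+/+ replicate 2. The differences were 0.19 (SE 0.18, 95% interval -0.29 to 0.66) and 0.36 (SE 0.26, 95% interval -0.31 to 1.04). The first interval lay within 2-fold.

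Differences between lines of a genotype exceeded the genotype difference on 12 of 14 member probes, beside 81.0% of all tested probes. The exceptions were Ctnna1 A_52_P21506 and Ctnnd1 A_52_P653276. The 2 Ip6k1+/+ lines differed by a median of 0.67 over the member probes and 0.36 over all tested probes, and the 2 Ip6k1-/- lines by 0.92 and 0.31. A 2-fold gap within Ip6k1+/+ was present on 3 member probes, those of Cdh3, Cdh11 and Cdh13, beside 13.7% of tested probes. Within Ip6k1-/- it was present on 6 member probes, those of Cdh2, Cdh3, Cdh11 (2 probes), Cdh13 and Jup, beside 11.2% of tested probes. The line that stood apart was not the same for each cadherin. Replicate 2 was the higher line of both genotypes for Cdh2, Cdh3 and Cdh11, and replicate 1 was the higher line of both genotypes for Cdh13.

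**Figure D4:**
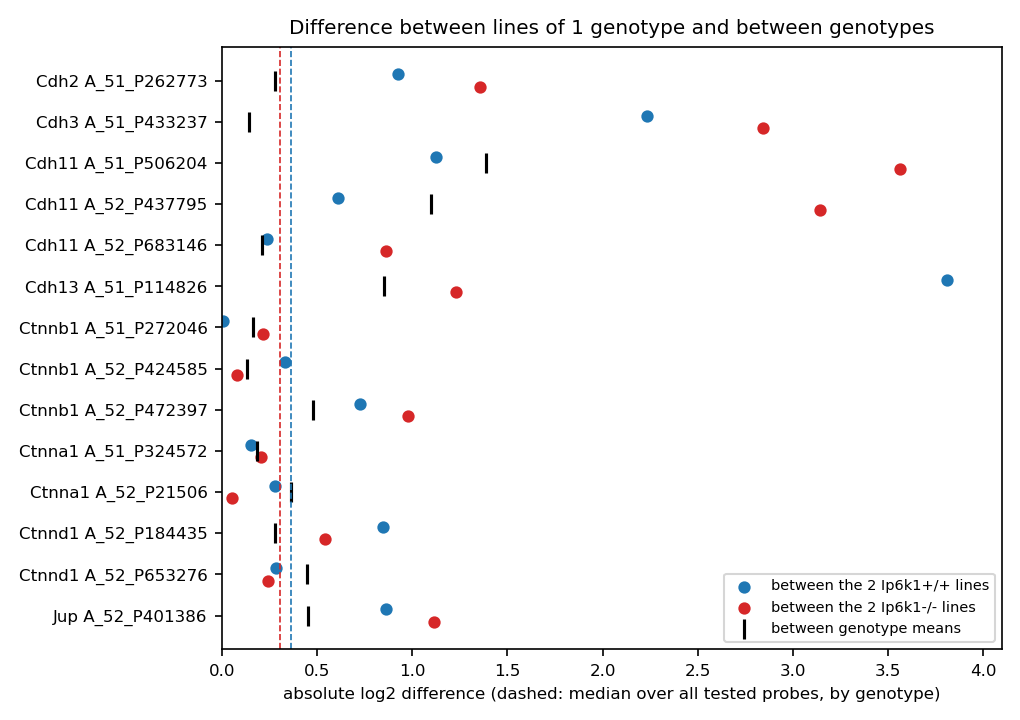
Absolute log2 difference (x axis) of each tested member probe between the 2 Ip6k1+/+ lines (blue), between the 2 Ip6k1-/- lines (red) and between genotype means (black bar). Dashed lines are the medians over all tested probes, 0.36 and 0.31. The cadherin gaps reach 3.81, whereas no catenin gap passes 1.12.

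The wider families and partners were read from gene lists, with the brightest tested probe of each gene. At an adjusted p of 0.05, 0 genes of these lists passed. Over the 14335 gene names tested, 2.38% were lower and 1.33% higher in Ip6k1-/- MEFs at an unadjusted p under 0.05, 2.13% and 1.05% passed the fold rule lower and higher, and the median difference was 0.04.

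Of 17 other cadherins, 11 were not well above background on any array and 4 were tested, with a median of -0.83. Cdh15, a cadherin of muscle, was at -3.57 and -4.48 in the Ip6k1+/+ lines, and lost the background flag in both Ip6k1-/- lines, where it was at least 1.61-fold lower (limma unadjusted p = 0.0342). Cdh24 was at -4.19 and -3.39 in the Ip6k1+/+ lines, against -2.48 and -2.50 in the Ip6k1-/- lines, and the difference was 1.30 (SE 0.40, limma unadjusted p = 0.0252). Cdh15 and Cdh24 were the genes of the list past the fold rule, and for Cdh15 the rule and the p-value rest on Ip6k1-/- signals that were not well above background. Cdh10, a type II cadherin of neural tissue, and Ctnna2 below were named after their values were seen. Cdh10 was well above background in replicate 2 of each genotype, at 0.43 and -1.81, and in neither replicate 1.

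Of 8 other catenin family genes, 6 were tested, 0 passed the fold rule or an unadjusted p under 0.05, and the median was 0.33. The largest difference, 1.32 (SE 1.33), was that of Ctnnd2, delta-catenin, a relative of p120-catenin, at -1.05 and -4.94 in the Ip6k1+/+ lines, against -1.23 and -2.11 in the Ip6k1-/- lines. Its low line was Ip6k1+/+ replicate 2, as for Cdh13. Ctnnal1, an alpha-catenin relative, was also lowest there, at 0.25 beside 2.74, 2.98 and 1.44 in the other lines. Ctnna2, the neural alpha-catenin, was well above background in replicate 2 of each genotype, at -2.01 and -1.72, and in neither replicate 1.

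Of the 20 adherens junction partners on the array, 20 were tested and 0 passed the fold rule or an unadjusted p under 0.05. Their median was 0.04 and their range -0.97 to 0.50. The extremes were Shroom3, an actin-binding protein of apical junctions, at -0.97 (SE 0.84) with Ip6k1-/- replicate 2 not well above background, and Afdn, the nectin-binding afadin, at 0.50 (SE 0.25). Zyx, the focal adhesion protein zyxin, was saturated on 3 of 4 arrays.

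Of 13 desmosome genes, 5 were tested and 8 were not well above background on any array, among them every desmoglein and desmocollin on the list. Perp, a membrane protein of desmosomes, was at 2.57 and -1.26 in the Ip6k1+/+ lines, against 3.17 and -0.14 in the Ip6k1-/- lines, higher in replicate 1 of both genotypes. The median difference of the 5 genes was 0.15, and 0 passed the fold rule or an unadjusted p under 0.05.

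Of 16 genes for beta-catenin turnover and its nuclear partners, 15 were found by name and tested, with a median of -0.07. Pygo1, a co-activator of beta-catenin, was at -4.21 and -4.85 in the Ip6k1+/+ lines, and lost the background flag in both Ip6k1-/- lines. On the mean it was at least 1.14-fold lower there, a figure that rests on Ip6k1+/+ replicate 1. Its fitted difference of -2.49 (limma unadjusted p = 0.00191, adjusted p = 0.856) rests on Ip6k1-/- signals that were not well above background. Pygo1 was the only gene of this list past the fold rule or an unadjusted p under 0.05. The destruction complex genes Apc, Axin1, Gsk3a, Gsk3b and Csnk1a1 differed by -0.13 to 0.09.

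Of 11 beta-catenin target genes, 7 were tested, with a median of 0.16. Axin2, a widely used Wnt target, failed the background flag on every array, as did Sp5 and Dkk1. Nkd2, a Wnt antagonist, was at -0.82 and -0.31 in the Ip6k1+/+ lines, against 0.34 and 0.63 in the Ip6k1-/- lines, and it passed the fold rule with a difference of 1.05 (SE 0.30, limma unadjusted p = 0.0188). Rnf43, a ubiquitin ligase that removes Wnt receptors, passed it in the other direction at -1.96 (SE 1.42), with Ip6k1+/+ replicate 1 at -0.17 and the other lines at -4.17, -3.38 and -4.88. The last of these, Ip6k1-/- replicate 2, was not well above background, so the difference rests in part on a signal under that limit. Nkd1 and Lgr5 failed the fold rule, but both were lower by more than Nkd2 was higher. Nkd1 (-1.53, SE 0.65) read -1.97, -2.96, -4.72 and -3.28 in the order of lines above, without overlap. Lgr5 (-1.69, SE 1.00) read -4.61, -2.58, -4.26 and -6.32, with overlap. Nkd1 in Ip6k1-/- replicate 1 and Lgr5 in Ip6k1-/- replicate 2 were not well above background. Ccnd1 (1.19, SE 0.66), Myc (0.25) and Znrf3 (0.16) were higher and failed the rule.

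Transcription factors that repress Cdh1 were all measured in these lines, in which Cdh1 itself was not well above background. The 6 genes had a median difference of -0.48 and 0 passed the fold rule. Snai1, which binds E-boxes of the Cdh1 promoter, was at 2.03 and 2.04 in the Ip6k1+/+ lines, against 1.48 and 0.92 in the Ip6k1-/- lines, and the difference was -0.84 (SE 0.27, limma unadjusted p = 0.0279, adjusted p = 0.994). Zeb1, a repressor of the same kind, was at 2.21 and 1.79 in the Ip6k1+/+ lines, against 1.75 and 0.67 in the Ip6k1-/- lines, with a difference of -0.79 (SE 0.43).

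Cell type markers gave the following counts. Of the 11 fibroblast markers, 3 were lower at an unadjusted p under 0.05, namely Col3a1, Pdgfrb and Dcn, of which Pdgfrb (-1.20, SE 0.19) and Dcn (-2.40, SE 0.82) passed the fold rule, and the list had a median of -0.29. Col1a1, Col1a2, Vim and S100a4 were saturated on at least 3 arrays each, so their differences are not given. The 5 epithelial markers tested had a median of -0.10 and 0 passed. Among the 3 endothelial markers tested, with a median of 0.20, Kdr, a receptor for vascular endothelial growth factor, was higher by 1.56 at an unadjusted p of 0.0379 (limma). Of 7 neural and Schwann cell markers on the array, 2 were tested. Sox2 was on the mean at least 2.54-fold lower in Ip6k1-/- MEFs, where neither line was well above background. That figure rests on Ip6k1+/+ replicate 1. Ip6k1+/+ replicate 2, at -4.69, was about level with the faintest flagged signals of the Ip6k1-/- arrays, -4.752 and -4.675. Of 6 skeletal muscle markers, Acta1 alone was tested, at -0.64. The summed neural signal was 1.30 and 2.79 in the Ip6k1+/+ lines, against 1.10 and 3.30 in the Ip6k1-/- lines, higher in replicate 2 of both genotypes, as were Cdh2, Cdh3 and Cdh10. Most of it was Tubb3, a neuronal tubulin, at 0.985, 2.60, 1.00 and 3.21 of these sums. The other 6 genes summed to 0.312 and 0.189 in the Ip6k1+/+ lines, against 0.096 and 0.099 in the Ip6k1-/- lines. Sox2, the other neural marker tested, was higher in replicate 1 of both genotypes, at -2.05 and -4.69 in the Ip6k1+/+ lines, against -5.37 and -6.85 in the Ip6k1-/- lines. The part of these genes in the Cdh2, Cdh3 and Cdh10 values was not tested.

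**Figure D5:**
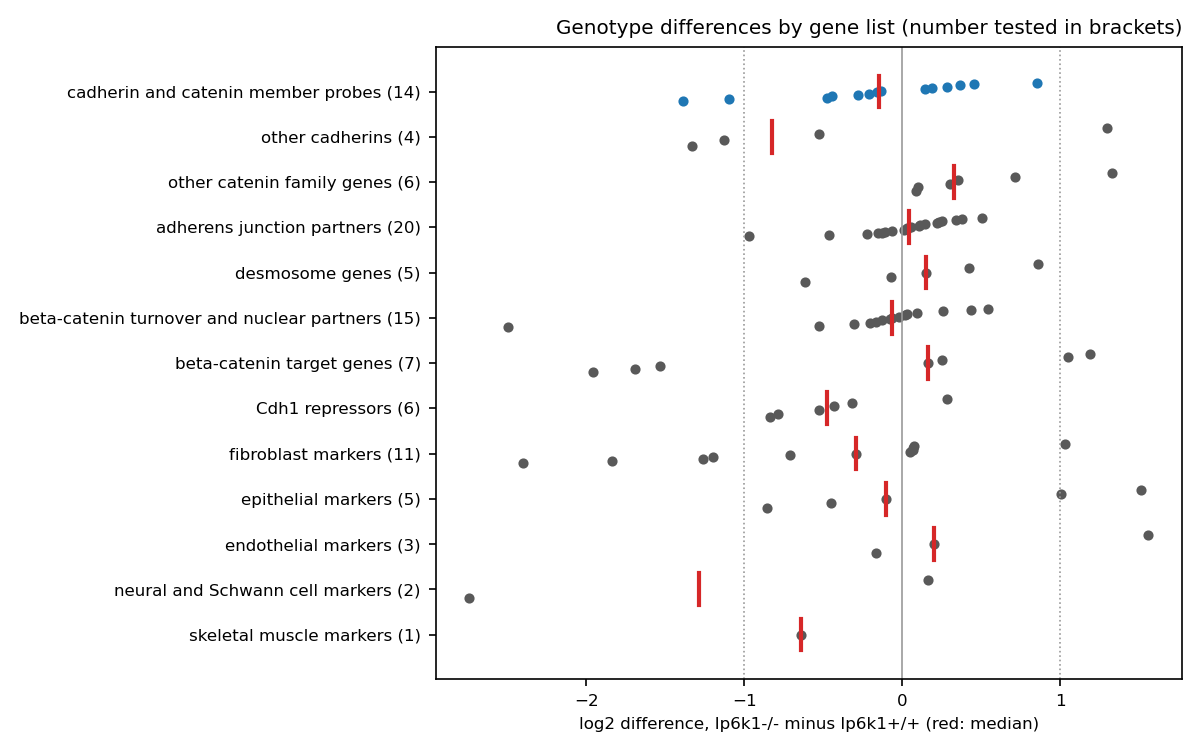
Log2 difference (x axis), Ip6k1-/- minus Ip6k1+/+, of each tested member probe (blue) and each tested gene of the lists (grey), with the median of each row in red and dotted lines at 2-fold. The adherens junction partners lie between -0.97 and 0.50, and the fibroblast markers extend to -2.40.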

How the data were processed

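RNA from 2 Ip6k1+/+ and 2 Ip6k1-/- MEF lines was converted to cDNA from an oligo-dT primer, labelled with Cy3 and hybridized to 4x44K Agilent arrays. The authors deposited each array's spot intensity from Feature Extraction (version 10.5.1.1 in the file headers) and log2 values that GeneSpring had shifted by the 75th percentile. Apart from a constant for each array, their log2 values and those used here deviated by a median of 0.0025. From the deposited intensity (processed signal), log2 was taken and the 75th percentile of non-control spots was subtracted. Between 96 and 133 spots per array with an outlier flag were left out, and spots of 1 probe were averaged. Probes counted as well above background if at least 50% of their spots were. The genotype term was fitted with limma 3.58.1 in R 4.3.3 (lmFit, then eBayes with trend) over all 21573 probes tested, and the fit was tested on simulated data. Members and gene lists were chosen with earlier results of these data known. All members were named, and of each list at most 4 genes past the fold rule or with the largest difference. Genes of the same lines read beside a member and the other beta-catenin target genes tested were named as well. Alternatives were normexp correction (offset 50) once 5 spots under their local background were left out, quantile and median normalization, no or a stricter filter, a floor on dim values, the deposited table, outlier spots kept, other variance models and tests, each line left out in turn, and the replicate number as a block. Slide was not used as a block because the arrays shared it. The number of arrays limits the precision. No protein table, no annotation of mm9 and no promoter sequence of Cdh1, Cdh3, Cdh5, Cdh11 or Cdh13 was used here.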

Additional observations from a re-analysis of the deposited data

How the results depend on the processing

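No alternative gave a member probe an adjusted p of 0.05 or less, and all 14 differences kept their sign under every setting that used 4 arrays. With normexp background correction 2 member probes did not overlap between genotypes, beside 4 as reported. With quantile normalization and with the median shift the number was 3. Without the filter on dim probes 7 of the 20 did not overlap, since dim probes then enter. Leaving out 1 line moved counts more. That includes the count of member probes with an unadjusted p under 0.05, which was 0 in every setting with 4 arrays. Over the lines left out in turn, the member probes without overlap numbered 7 to 11. Those past the fold rule numbered 0 to 3 lower and 0 to 2 higher in Ip6k1-/- MEFs. The share of all tested probes without overlap, 31.2%, was computed for the main setting only, as were the shares past the fold rule. With 1 line in a genotype, any probe more readily shows no overlap, so these counts are not read as a result about the members. The differences turned without Ip6k1+/+ replicate 1 for Cdh2, Cdh3 and Ctnnb1 A_52_P424585, without Ip6k1+/+ replicate 2 for Cdh13 and Ctnnd1 A_52_P184435, without Ip6k1-/- replicate 1 for all 3 Cdh11 probes and Jup, and without Ip6k1-/- replicate 2 for Cdh2, Cdh3 and Ctnnb1 A_52_P472397. Their ranges over the lines left out were -0.40 to 0.96 for Cdh2, -1.28 to 1.56 for Cdh3, -1.05 to 2.76 for Cdh13, -3.17 to 0.40 for Cdh11 A_51_P506204, -2.67 to 0.47 for Cdh11 A_52_P437795 and -0.64 to 0.22 for Cdh11 A_52_P683146. For catenins they were -0.10 to 1.01 for Jup, -0.70 to 0.14 for Ctnnd1 A_52_P184435, -0.30 to 0.031 for Ctnnb1 A_52_P424585 and -0.96 to 0.011 for Ctnnb1 A_52_P472397. Of the differences that kept their sign, those over 1.5 times apart from the reported value ranged from -0.27 to -0.055 for Ctnnb1 A_51_P272046, 0.082 to 0.29 for Ctnna1 A_51_P324572 and 0.22 to 0.50 for Ctnna1 A_52_P21506. Ctnnd1 A_52_P653276 moved from -0.45 to -0.099 with normexp, and with the median shift Ctnnb1 A_51_P272046 and A_52_P424585 moved to -0.11 and -0.079. The cause was not tested. A genotype left with 1 line was assumed to vary like the other.

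The labels do not say that equal replicate numbers mark paired lines, and deviations of same-numbered lines correlated at 0.479 over tested probes. With the replicate block, 0 member probes passed an adjusted p of 0.05 or an unadjusted p under 0.05 and 4 did not overlap. The smallest adjusted p was then 0.644, for Cdh11 A_51_P506204 (-1.39, SE 0.59).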
